A study of Mus musculus with 40 samples.

Results

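The regions described here are long stretches of mouse autosomes that held no peak of 4 chromatin-bound proteins in macrophages, together with the bound regions at their 2 ends. The peaks of CTCF, PU.1, C/EBPb and SMARCA5 were merged into union regions wherever they shared at least 1 bp. A stretch, or long gap, was selected on the positions of these peaks alone, as an interval of 300 kb or more between consecutive union regions on chromosomes 1 to 19, with chromosome ends left out. This gave 1037 long gaps among 90127 intervals, or 1.15% of them. Their borders were 1824 union regions of 90146 on these chromosomes, where the whole series held 92529. The border regions number fewer than 2 per gap because 250 of them lay between a pair of long gaps and served both.

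The cells were primary mouse bone marrow-derived macrophages. Wild-type cells carried Csf1r-Cre, a recombinase driven by the promoter of a receptor gene of the macrophage lineage, and Smarca5-/- cells carried Smarca5lox/lox with Csf1r-Cre. Cells of both genotypes were given 4-hydroxytamoxifen daily over 7 days of differentiation. Untreated cells gave 4 libraries for each of the 3 DNA-binding factors, 2 per genotype. SMARCA5 was measured by micrococcal nuclease ChIP-seq in 8 libraries, 4 per genotype, of cells left unstimulated or given 10 ng/ml LPS for 2 h. Each protein was represented by 1 consensus list on mm39, and 0 value columns or peak names gave a library, so genotypes cannot be compared. A long gap is a stretch without a consensus peak, and a peak present in some libraries only may have been left out of the list. Nor could the loss of SMARCA5 be checked in these lists. Read depth is unknown, and the lack of a listed peak cannot be read as a lack of binding.

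CTCF is a zinc-finger protein that binds insulators and the anchors of chromatin loops in most cell types. PU.1 is the transcription factor that sets the enhancers of myeloid cells, and C/EBPb often binds beside it in macrophages. SMARCA5 is the ATPase of ISWI remodelling complexes, which slide and space nucleosomes. Long stretches without bound regulators are a common feature of mammalian chromosomes and are often gene-poor or silent in a given cell type.

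Long gaps took up a large part of the autosomes. Together they covered 820.3 Mb, which was 34.2% of the 2399.8 Mb between the first and last union regions of the chromosomes. The median long gap was 576.0 kb, with quartiles of 392.0 and 953.8 kb, against a median of 7.52 kb over all intervals. Lengths of 300 to 500 kb were found for 442 gaps, 500 kb to 1 Mb for 356, 1 to 2 Mb for 184, and 2 Mb or more for 55. The 55 longest made up 5.30% of the gaps and 18.2% of their bases. Outside the long gaps there were 57.1 union regions per Mb, against 37.6 over the whole span.

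The chromosomes differed in how much of them lay in long gaps. The share was 42.9% on chromosome 14 and 42.1% on chromosome 3, and it was 23.7% on chromosome 11 and 23.9% on chromosome 19. The other 15 chromosomes lay between these values. Chromosomes 11 and 19 also had the most union regions per Mb, 52.2 and 49.4, and chromosomes 14 and 3 the fewest, 31.0 and 31.2, 2 measures that are linked by construction. By number, chromosome 16 had 54.9 long gaps per 100 Mb and chromosome 11 had 35.3.

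**Figure D1:**
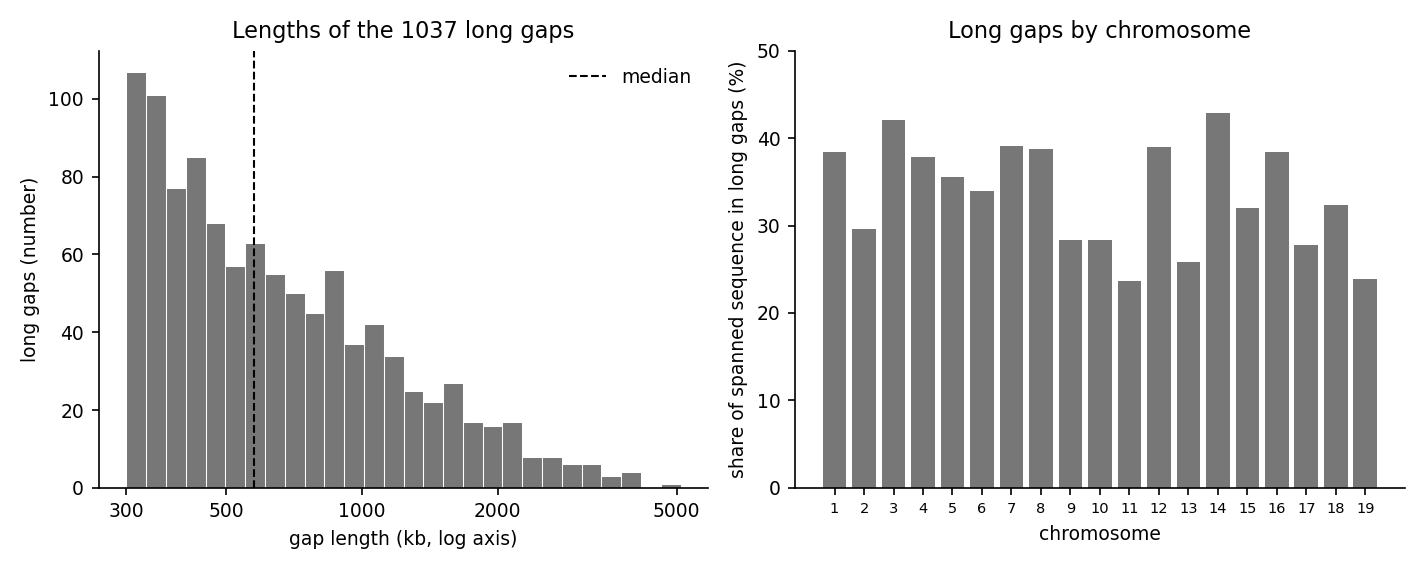
Left, number of long gaps by length in kb on a log axis, with the median of 576.0 kb as a dashed line. Right, share of the sequence between the first and last union region of each chromosome that lay in long gaps, in percent, with the lowest bar at 23.7% for chromosome 11 and the highest at 42.9% for chromosome 14.

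Long gaps lay less often toward the far end of the chromosomes. The span between the first and last union regions of each chromosome was divided into 5 equal parts. In the order of the coordinates, 38.3%, 38.8%, 38.5%, 31.4% and 23.9% of the sequence lay in long gaps. The last part had a lower share than the first on 14 of 19 chromosomes, and chromosomes 2, 10, 14, 16 and 19 had the opposite order. In 218 full windows of 10 Mb the median share was 30.9%. More than 75% of the sequence was in long gaps in 7 windows, on 7 chromosomes, and 5 windows had none. The window with the highest share, 85.5%, was on chromosome 12 from 60000001 to 70000000, and 95 union regions began in it.

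Long gaps followed one another. After a long gap, the next interval was also long in 24.1% of cases (250 of 1036), against 0.881% after any other interval (785 of 89072). In all, 432 long gaps, or 41.7% (95% Wilson interval 38.7 to 44.7), shared a border region with another, and they formed 182 runs. Of these runs, 136 had 2 gaps, 31 had 3, 9 had 4, 5 had 5 and 1 had 6. The share depended on the threshold, at 26.4% with 500 kb. The run of 6 gaps spanned chromosome 9 from 9049634 to 12956480. Its 5 inner regions were 3 with CTCF alone and 2 with PU.1 alone. The longest run by distance was 6.54 Mb on chromosome 14 from 89419226 to 95956491, broken only by 2 regions that held CTCF alone.

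The longest gap was 5035.2 kb on chromosome 14 from 14720375 to 19755554. Its left border held CTCF alone and its right border CTCF with SMARCA5. It was followed by a gap of 3930.5 kb on chromosome 12 from 45491028 to 49421498, with CTCF alone at both ends, and one of 3912.9 kb on chromosome 11 from 12509651 to 16422532, with CTCF alone to the left and PU.1 alone to the right. The 10 longest gaps lay on 9 chromosomes and were all at least 3321.5 kb long. Of their 20 border sides, 12 held CTCF, 7 held PU.1, 1 held C/EBPb and 1 held SMARCA5, and 19 held a single protein. CTCF was present at 1 or both ends of 9 of the 10, the exception being the gap of 3748.2 kb on chromosome 6 from 73564302 to 77312489, with PU.1 alone at each end. Over all long gaps, CTCF was at 1 or both ends of 65.0% and on 43.1% of border sides, and 85.9% of sides held a single protein. For gaps of 2 Mb or more, 47.3% of sides held CTCF (38.2 to 56.5).

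Every autosome had a long gap over 1 Mb, and 16 had one over 2 Mb. The longest gap of chromosome 19 was the shortest of these, at 1184.6 kb, followed by chromosome 9 at 1395.1 kb and chromosome 15 at 1887.4 kb. The gap on chromosome 15 had C/EBPb alone at both ends, with fold enrichments of 10.1 and 15. On chromosome 13 the longest gap, 2062.7 kb, had a border with PU.1, C/EBPb and SMARCA5 on its left, where the PU.1 fold enrichment was 19.6. On chromosomes 2 and 17 the left border of the longest gap held SMARCA5 alone, with fold enrichments of 2.19 and 2.14. Just inside the threshold lay gaps of 300.4, 300.6 and 301.5 kb, and just outside it gaps of 299.9, 299.4 and 299.3 kb.

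Border regions held CTCF more often than the 88322 other union regions and the other 3 proteins less often. CTCF was present in 43.4% of border regions (791 of 1824, 95% interval 41.1 to 45.7) and in 26.3% of the others (26.0 to 26.6). PU.1 was present in 47.4% (45.1 to 49.7) against 66.5%, C/EBPb in 16.9% (15.3 to 18.7) against 31.7%, and SMARCA5 in 13.3% (11.8 to 15) against 40.8%. Border minus other was thus 17.0 percentage points for CTCF. It was -19.1 for PU.1, -14.7 in the case of C/EBPb and -27.5 for SMARCA5. The direction was the same on 19 of 19 chromosomes for each protein. For CTCF the chromosomes ranged from 3.09 points on chromosome 19 to 30 on chromosome 12, and for SMARCA5 from -38.3 on chromosome 11 to -19.0 on chromosome 3. Some differences depended on the comparison. With the CTCF list left out and gaps found anew, the PU.1 difference was -0.514 points. Against only the regions beside gaps of 100 to 300 kb, the C/EBPb difference was 0.163 points. Among peaks in the upper 50% of their list by fold enrichment, SMARCA5 differed by -4.03 points and PU.1 by -8.80. The intervals cover counting error only, and no p-value is given, since regions are not replicates and no library could be told apart.

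**Figure D2:**
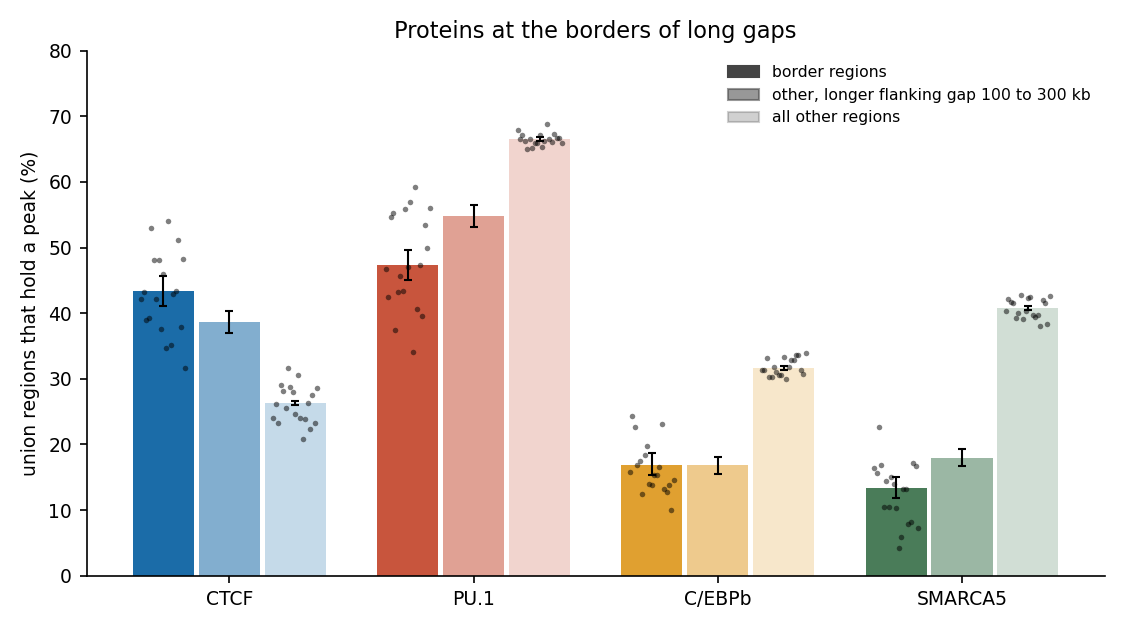
Share of union regions with a peak of each protein, in percent, for border regions (dark), other regions whose longer flanking gap was 100 to 300 kb (middle) and all other regions (light). Error bars are 95% Wilson intervals and points are the 19 chromosomes. CTCF stands at 43.4% in border regions against 26.3% in all others, and SMARCA5 at 13.3% against 40.8%.

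Most border regions held a single protein. The share was 84.6% (1543 of 1824), against 58.5% of the others, and their median width was 401 bp against 509 bp. Regions beside gaps of 100 to 300 kb were close to them, with 79.6% holding a single protein and a median width of 417 bp. CTCF alone made up 37.7% of border regions (35.5 to 40.0) and 13.9% of the others. PU.1 alone made up 35.5% (33.4 to 37.8) against 30.4%, and C/EBPb alone 9.16% (7.92 to 10.6) against 8.06%. SMARCA5 alone was found at 2.19% (1.61 to 2.97) against 6.03%. Seen from the other side, 5.29% of all autosomal regions with CTCF alone were borders, against 2.35% of those with PU.1 alone and 2.29% of those with C/EBPb alone. With SMARCA5 alone the share was 0.745%, and over all autosomal union regions it was 2.02%.

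Combinations of proteins were rarer at borders. PU.1 with C/EBPb and SMARCA5, the most frequent combination elsewhere, made up 3.07% of border regions (56 regions) and 12.9% of the others. PU.1 with SMARCA5 made up 3.12% against 10.0%. All 4 proteins met at 12 border regions, or 0.658%, against 3.45% of the others. CTCF with SMARCA5 alone came closer, at 2.69% against 3.29%. Among regions with a single protein, the share with CTCF was 44.6% at borders and 23.8% elsewhere, a difference of 20.8 points. Among these, the differences were smaller than over all regions for PU.1, at -10.1 points, C/EBPb, at -2.96, and SMARCA5, at -7.72. Within 5 classes of region width the SMARCA5 difference was -1.78 points and the C/EBPb difference -5.83. Outside borders the median peak width was 2566 bp for SMARCA5 and 403 bp for CTCF. Width classes therefore partly sort regions by whether they hold SMARCA5, and cannot show whether width accounts for its lower share.

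The contents of borders continued a trend that was already present among regions beside shorter gaps. Where the longer of the 2 flanking gaps was under 10 kb, CTCF was held by 23.2% of regions, and the share was 26.7% for 10 to 30 kb, 30.3% for 30 to 100 kb and 38.7% for 100 to 300 kb. It was 43.0% for 300 kb to 1 Mb and 44.5% for 1 Mb or more. SMARCA5 went from 50.1% under 10 kb to 18.0% for 100 to 300 kb and 11.6% for 1 Mb or more. PU.1 had 66.9% under 10 kb, 54.8% for 100 to 300 kb and 46.7% for 1 Mb or more. C/EBPb had 36.8%, 16.8% and 17.8% for the same classes. Against the 3302 regions beside gaps of 100 to 300 kb, border regions differed by 4.69 points for CTCF, -7.42 for PU.1 and -4.64 for SMARCA5. For C/EBPb the difference was 0.163 points, so its lower share at borders was not seen against these neighbours below the threshold.

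**Figure D3:**
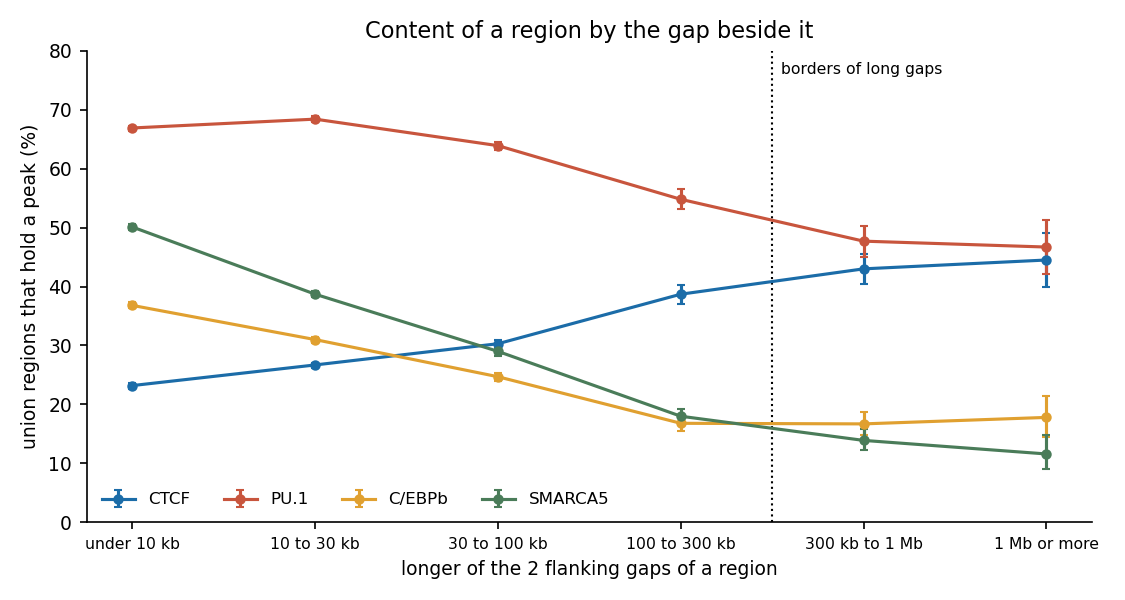
Share of union regions with a peak of each protein, in percent, by the longer of the 2 gaps beside the region, with 95% Wilson intervals; the classes right of the dotted line are the border regions. CTCF goes from 23.2% to 44.5% and SMARCA5 from 50.1% to 11.6% between the shortest and longest class.

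Among the long gaps themselves, the border contents varied little with gap length. CTCF was held by 43.4% of border sides for gaps of 300 to 500 kb, 42.0% for 500 kb to 1 Mb, 42.9% for 1 to 2 Mb and 47.3% for 2 Mb or more, and the last value had an interval of 38.2 to 56.5. SMARCA5 was held by 12.9%, 12.4%, 10.3% and 13.6%, and PU.1 by 46.9%, 47.9%, 46.7% and 45.5%. Pooled over gaps, left and right borders had similar shares. The 2 ends of a single gap often differed, with CTCF at the left end only in 22.5% of gaps and the right end only in 21.4%. Regions with a long gap only on their left held CTCF in 43.1% and those with one only on their right in 44.5%, and the shares of PU.1 were 47.9% and 47.6%.

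The 250 regions with a long gap on each side were nearly all bound by a single protein, at 95.6%. PU.1 alone was found at 103 of them, CTCF alone at 98, C/EBPb alone at 34 and SMARCA5 alone at 4. SMARCA5 was present in 4.80% of them (2.77 to 8.20), against 14.7% (13.0 to 16.5) of borders with a long gap on 1 side. The 4 regions with the longest gaps around them all held CTCF alone. They lay on chromosome 12 from 49421499 to 49421905, between gaps of 3930.5 and 1901.1 kb, on chromosome 14 from 93001823 to 93002153, with the remaining 2 on chromosome 8, from 103507554 to 103507960 and from 50745175 to 50745590. Their CTCF fold enrichments were 8.36, 10.2, 10.6 and 9.55. The fifth, with PU.1 alone at 12.9, lay on chromosome 18 from 29995190 to 29995570.

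Contents shifted over the first few regions beyond a border. Counted away from the gap, and giving a region between 2 long gaps once for each, CTCF was held by 43.1% of border sides, 40.6% of regions of rank 2, 36.6% of rank 3, 29.3% of rank 5 and 25.1% of rank 7. SMARCA5 was held by 12.3% at the border, 21% at rank 2, 27.1% at rank 3 and 41.1% at rank 5, close to the 40.8% of all other regions. PU.1 was held by 47.2% at the border, 57.1% at rank 3 and 65.3% at rank 6. C/EBPb stood at 16.7% at the border, 27.7% at rank 4 and 31.3% at rank 11. The counts went from 2074 sides at rank 1 to 1571 at rank 2 and 954 at rank 20, since a count ended at the next long gap or the chromosome end. The ranks thus cover different sides, and regions between 2 long gaps count at rank 1 only. SMARCA5 was present in 4.80% of those regions and in 14.7% of borders with a long gap on 1 side.

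**Figure D4:**
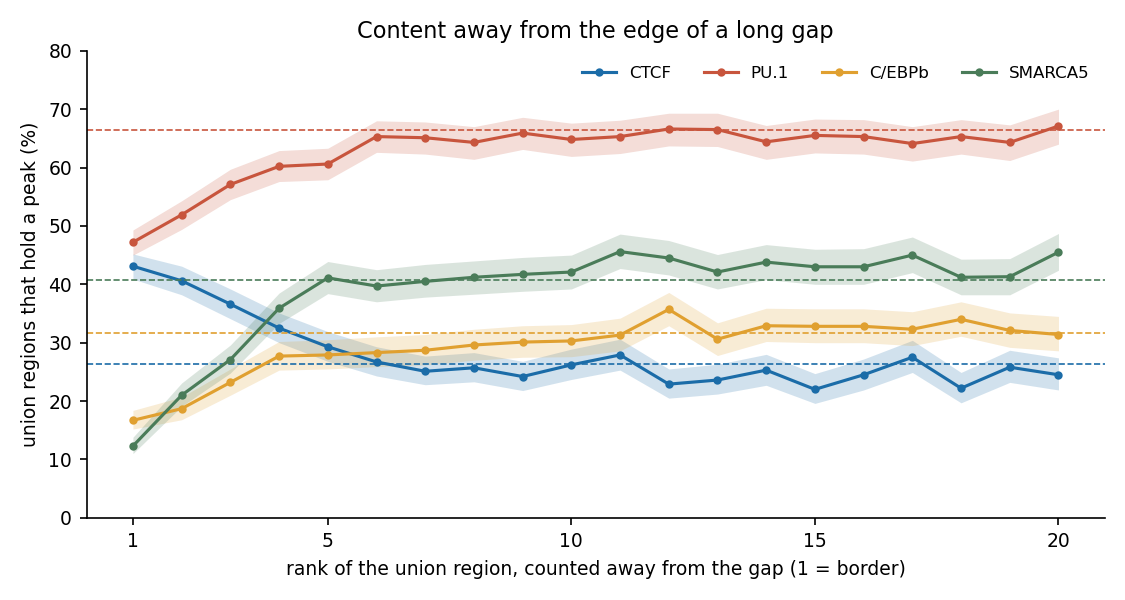
Share of union regions with a peak of each protein, in percent, by rank away from the long gap, where 1 is the border; bands are 95% Wilson intervals and dashed lines the shares in all other regions. SMARCA5 goes from 12.3% at rank 1 to 41.1% at rank 5, and CTCF from 43.1% to 29.3%.

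Many borders had few union regions on the side away from the long gap. For borders with a long gap on 1 side only, the interval on the opposite side had a median of 48.0 kb, against 7.33 kb for other regions, where the rule keeps both kinds of interval under 300 kb. Over all borders, the number of union regions within 500 kb on that side had a median of 12 where the border held SMARCA5, 9 with CTCF, 7 with PU.1 and 5 with C/EBPb. Where the border held 1 protein alone, the median was 5.5 with SMARCA5, 8 with CTCF, 6 with PU.1 and 3 with C/EBPb. These numbers include the regions between 2 long gaps, whose far side is empty for at least 300 kb by the rule.

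CTCF was at both ends of 21.1% of long gaps (219, interval 18.7 to 23.7), where the product of its shares at left and right ends was 18.5%. PU.1 was at both ends of 25.1% (260, 22.5 to 27.8), against a product of 22.2%. C/EBPb was at both ends of 3.28% (34, 2.36 to 4.55), against a product of 2.80%, and SMARCA5 of 2.12% (22, 1.41 to 3.19), against 1.51%. The products lay within the counting error for C/EBPb and SMARCA5 and just below it for CTCF and PU.1. CTCF alone facing PU.1 alone was the most frequent pair, in 247 gaps, followed by CTCF alone at each end in 174 and PU.1 alone at each end in 157. CTCF was present at 1 or both ends of 65.0% of long gaps, and SMARCA5 of 22.5%. Gaps with CTCF at both ends had a median length of 547.3 kb, and those with CTCF at neither 561.6 kb.

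The CTCF, PU.1 and C/EBPb peaks at borders had lower -log10 q than the other peaks of their list. Among CTCF peaks the median was 35.3 at borders (799 peaks) and 53.8 elsewhere. PU.1 had 30.9 (891 peaks) against 49.1, and C/EBPb 35.8 (311 peaks) against 48.8. The median was lower at borders on 19 of 19 chromosomes for each of these factors. In regions beside gaps of 100 to 300 kb the medians lay nearer to the border values, with CTCF at 39.7, PU.1 at 35.4 and C/EBPb at 39.3. Of the border CTCF peaks, 44.8% were in the lowest 25% of the CTCF list by -log10 q and 6.51% in the highest 25%. With CTCF alone the medians were 33.0 and 44.2, with the border value lower on 19 of 19 chromosomes. With PU.1 alone they were 27.6 and 34.7, lower on 17, and with C/EBPb alone 34.4 and 45.3, lower on 15. In regions shared with another protein the CTCF medians were 66.9 at borders and 68.1 elsewhere, the PU.1 medians 49.1 and 70.6, and the C/EBPb medians 38.1 and 50.7.

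**Figure D5:**
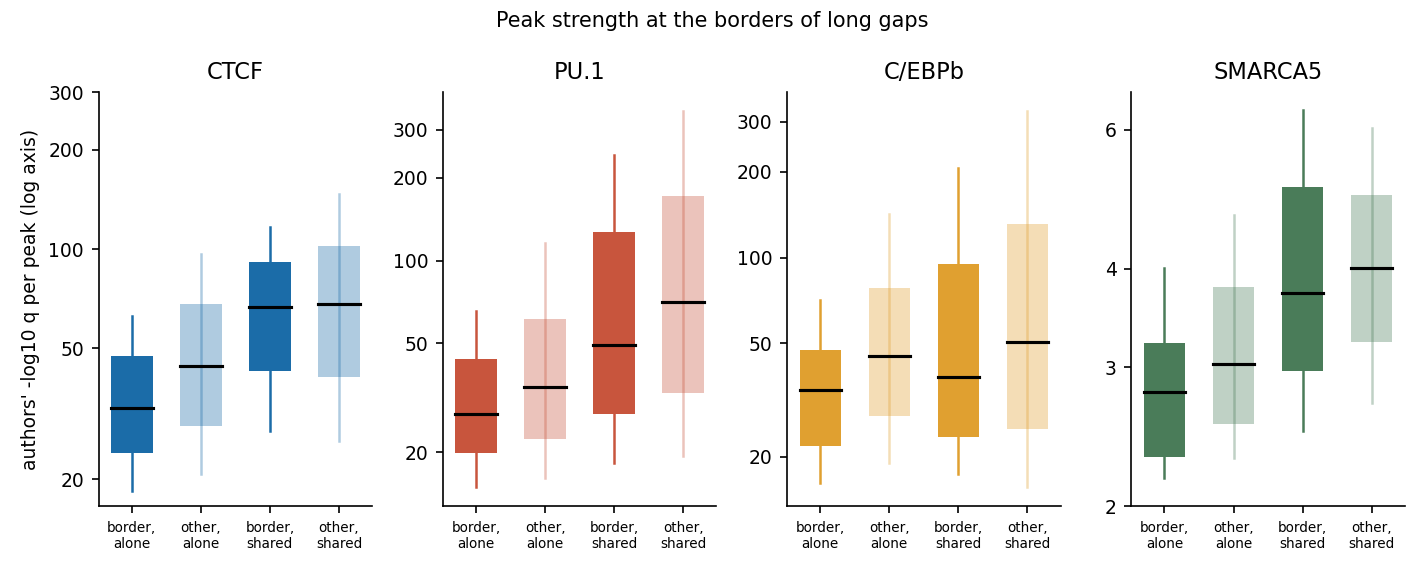
The authors' -log10 q per peak on a log axis, for peaks of each list in border and other regions, split by whether the region held that protein alone or shared it with another. Boxes span the quartiles, black lines are medians and thin lines run from the 10th to the 90th percentile. For CTCF alone the median is 33.0 at borders and 44.2 elsewhere.

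Fold enrichment over the local background, also the authors' value, gave a different picture from -log10 q. The median for CTCF peaks was 10.8 at borders and 11.7 elsewhere, lower on 18 of 19 chromosomes. For PU.1 it was 11.2 against 11.3, lower on 11 of 19, and for C/EBPb it was 12.2 against 11.7, higher on 15. SMARCA5 peaks at borders had the higher fold enrichment, at 2.21 (243 peaks) against 2.07, and this held on 19 of 19 chromosomes. Of them, 55.1% were in the highest 25% of the SMARCA5 list by fold enrichment and 2.88% in the lowest 25%, while their median -log10 q was 3.5 against 3.86, lower on 13 of 19 chromosomes and higher on 6. By -log10 q, 24.7% of them were in the highest 25% of the list and 35.0% in the lowest 25%. The same was seen for SMARCA5 peaks in regions beside gaps of 100 to 300 kb, with a median fold enrichment of 2.22. Broad and narrow peaks may not share a scale, so these values are compared within a list only.

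The deposited scores also differed. A decimal part of 0.25 or 0.75 was found in 23.5% of border CTCF peaks (20.7 to 26.6) and 38.0% of the others. For PU.1 the shares were 28.7% (25.9 to 31.8) and 36.7%, for C/EBPb 23.5% (19.1 to 28.5) and 33.4%, and for SMARCA5 19.3% (14.9 to 24.8) and 19.4%. In regions shared with another protein, the CTCF shares were 39.6% (31.0 to 48.9) at borders and 41.2% elsewhere. For PU.1 they were 37.9% (32.0 to 44.1) and 41.7%, and for C/EBPb 32.6% (25.5 to 40.7) and 37.2%. With the protein alone they were 20.9% and 34.9% for CTCF, 25.3% and 29.5% for PU.1 and 15.6% and 21.3% for C/EBPb. CTCF peaks with a long gap on each side had such a score in 9.80% of cases (5.41 to 17.1, 10 of 102). How the scores were made is not given in the sources used here.

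Factor peaks at borders met SMARCA5 less often than factor peaks elsewhere. Of regions with CTCF, 10.4% also held SMARCA5 at borders (8.43 to 12.7) and 39.6% did elsewhere. For PU.1 the shares were 16.6% (14.3 to 19.3) and 44.6%, and for C/EBPb 25.2% (20.7 to 30.4) and 57.5%. The share was lower at borders on 19 of 19 chromosomes for CTCF and PU.1 and on 18 for C/EBPb. In regions where CTCF was the only factor, SMARCA5 was present in 6.65% at borders, 8.72% beside gaps of 100 to 300 kb and 19.1% of all others. PU.1 and C/EBPb also met each other less often, with C/EBPb in 14.7% of border regions with PU.1 and in 32.2% of others. Regions beside gaps of 100 to 300 kb were close to the borders, at 15.7% (14.1 to 17.5). In that class SMARCA5 was present in 14.6% of regions with CTCF, 21.1% with PU.1 and 34.5% with C/EBPb.

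Split by peak strength, the difference stayed beyond the counting error in every 25% of the PU.1 and C/EBPb lists. For CTCF it did so in all but the highest 25%. In the lowest 25% of the CTCF list by -log10 q, 4.19% of border peaks (15 of 358) and 27% of other peaks lay in a region with SMARCA5. In the next they were 7.26% and 33.1%, and in the third 19.1% and 43.4%. In the highest 25% the shares were 57.7% (30 of 52, 44.2 to 70.1) and 60.5%, which differed by less than the counting error. For PU.1 the shares were 11.4% and 33.9% in the lowest 25%, 15% and 38.3% in the next, 23.3% and 52.2% in the third, and 53.8% (43.7 to 63.7) and 75.6% in the highest. For C/EBPb they were 21% and 63.0% in the lowest, 20.2% and 52.2% in the next, 28.4% and 54.5% in the third, and 51.4% (35.6 to 67.0, 18 of 35) and 71.1% in the highest. The part of peak strength in the lower SMARCA5 share was not tested beyond this split.

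SMARCA5 peaks were the least often at borders. The share of a list's autosomal peaks that lay in border regions was 3.23% for CTCF and 1.35% for PU.1. It was 1.03% for C/EBPb and 0.670% for SMARCA5. Of the widest 20% of SMARCA5 peaks, with a median width of 5603 bp, 0.276% (0.178 to 0.425) were at borders, against 0.854% (0.667 to 1.09) of the narrowest 20%, with a median of 912 bp. By -log10 q, 5.80% of the lowest 25% of CTCF peaks (5.24 to 6.41) and 0.842% of the highest 25% (0.643 to 1.10) were at borders.

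Strong binding did occur at some borders. The border CTCF peak with the highest fold enrichment, 23.4, was on chromosome 9 from 30391731 to 30392192, in a region shared with SMARCA5 beside a gap of 459.4 kb. For PU.1 the highest value, 31.9, was on chromosome 17 from 19188532 to 19189083. The next, 30.6, was on the same chromosome from 18778934 to 18779510, and the 2 peaks faced each other across a gap of 408.6 kb. The leading C/EBPb border peak, at 33.2 and of rank 81 in its list, was on chromosome 2 from 80468875 to 80469418 with PU.1 and SMARCA5. For SMARCA5 the value of 2.94 on chromosome 10 from 105792538 to 105794455, beside a gap of 1789.0 kb, was of rank 27 in its list.

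Each of the 12 borders with all 4 proteins had a long gap on 1 side only. The one beside the longest gap, 2335.2 kb, was on chromosome 1 from 121494449 to 121496938, where the fold enrichment was 21.1 for CTCF and 20.1 for PU.1, with C/EBPb at 11 and SMARCA5 at 2.31. On chromosome 18 from 84968001 to 84970689, beside a gap of 1605.2 kb, they were 18.1, 13.7, 11.7 and 2.22. Both had another union region within 26.5 kb on the opposite side. These 2 regions were chosen after their values were seen.

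The lists shaped the gaps unequally. Without the CTCF list the union had 1093 long gaps over 39.7% of the span, and 60.1% of the long gaps described here became part of a longer one. Without PU.1 there were 1128 over 40.2%, and 60.5% became part of a longer one. Leaving out C/EBPb or SMARCA5 changed less, with 1034 and 1041 long gaps over 35.2% and 34.4% of the span. Taken alone, the CTCF list had gaps of this length over 51.3% of the span, PU.1 over 41.8%, C/EBPb over 55.1% and SMARCA5 over 54.2%. Without CTCF peaks in the union, the PU.1 difference was -0.514 points.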

How the data were processed

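The data were 4 consensus peak lists of ChIP-seq in mouse macrophages, 1 per protein, on mm39 per the submitters' processing notes, which also name MACS2 2.2.7.1, STAR 2.7.9a, deepTools 3.5.1 and Picard 2.27.4. Not given in the sources used here: how replicates entered and what made a peak a consensus peak. Each deposited peak carries a score, a fold enrichment (a ratio, as MACS2 writes it) and a -log10 q, which the authors gave per peak and which serve only to describe or rank peaks within a list. The 40 libraries of the labels form 20 groups of 2, but 0 columns belong to a library, so groups were not compared and depth is unknown.

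Peaks were merged with pandas 2.3.3 and NumPy 2.4.6 under Python 3.11.15, and the merging was checked on simulated peaks. Touching peaks without a shared base stayed apart. Intervals for shares are 95% Wilson intervals from statsmodels 0.14.6 and cover counting error only; neighbouring regions and the proteins of 1 region are not independent. The 19 chromosomes give a second, descriptive spread. Plots were drawn with matplotlib 3.10.9. Named gaps and peaks are the 10 longest gaps, the longest of each chromosome, the longest runs, the 5 regions with the longest gaps on both sides, those nearest the threshold and the leading border peaks by fold enrichment. The members, rules and alternatives were chosen with earlier results of these data known. Gene content, sequence and mappability of the gaps were not analysed here, since the gene tables at hand are on GRCm38.p6. H3K27ac was not analysed here.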

Additional observations from a re-analysis of the deposited data

How the results depend on the processing

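Of 78 values under alternatives, 41 stayed within the counting error of the reported value (within 1.5 times for the number of gaps). CTCF was more frequent at borders in all 14 alternatives, and SMARCA5 less frequent in all 14, as was C/EBPb in 13. The PU.1 difference was below 0 in all 14, but was near 0 without the CTCF list. A threshold of 500 kb gave 595 long gaps, of which 26.4% shared a border; at 200 kb 48.4% did. Keeping peaks in the upper 50% of their list by fold enrichment, with gaps found anew, gave 1058 long gaps, of which 34.3% shared a border. Border minus other differences were then 12.7 points (CTCF), -8.80 (PU.1), -8.86 (C/EBPb) and -4.03 (SMARCA5). With peaks resized to 200 bp these were 23.2, -7.40, -8.97 and -20.2. Without the CTCF list PU.1 had -0.514, C/EBPb -8.96 and SMARCA5 -21.8. Without the PU.1 list they were 25 for CTCF, -17.4 for C/EBPb and -31.6 for SMARCA5, with 37.7% of gaps sharing a border. Against regions beside gaps of 100 to 300 kb they were 4.69 for CTCF, -7.42 for PU.1 and -4.64 for SMARCA5, and C/EBPb turned to 0.163; the cause was not tested. Within width classes PU.1 had -13.7, C/EBPb -5.83 and SMARCA5 -1.78, where a SMARCA5 peak itself widens a region. Chosen after seeing the data, single-protein regions gave 20.8, -10.1, -2.96 and -7.72 in the order CTCF, PU.1, C/EBPb, SMARCA5. The top 20000 peaks of each list by -log10 q gave 20.8, -16.0, -11.9 and -18.4, with 33.1% of gaps sharing a border. Borders with a long gap on each side gave 14.5 for CTCF and -36.0 for SMARCA5. The top 20000 peaks and these borders were also chosen after seeing the data. Leaving out each chromosome in turn kept CTCF between 16.4 and 17.7 and SMARCA5 between -28.2 and -27.0. No paired analysis was possible because no value belongs to a single library.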

Other observations

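On the X chromosome, which the rule leaves out, the same threshold gave 74 long gaps with 137 border regions among 2239 union regions. They covered 63.9% of the span, against 42.9% on the autosome with the highest share, and the X had 13.7 union regions per Mb. The median long gap was 713.5 kb and the longest 10859.6 kb. Border regions on the X held CTCF in 46.0% and other regions in 24.3%. PU.1 was held by 46.7% and 66.0%, C/EBPb by 19.7% and 28.9%, and SMARCA5 by 12.4% and 35.4%. These differences had the same direction as on the 19 autosomes.

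A border region on chromosome 2 carried the highest autosomal -log10 q of the CTCF, C/EBPb and PU.1 lists, rank 1 in each. Its CTCF peak ran from 98496627 to 98497669 with a -log10 q of 24675.8, its C/EBPb peak from 98496898 to 98497670 with 1057565.5, and its PU.1 peak from 98496899 to 98497670 with 285035. The fold enrichments were 14.3, 22.3 and 22.8. Peaks outside borders had a median -log10 q of 53.8 for CTCF, 48.8 for C/EBPb and 49.1 for PU.1. Whether such values at nearly coincident peaks of 3 lists reflect binding was not tested, as sequence and mappability were not analysed. The region stood between gaps of 1047.4 and 569.7 kb. Without peaks of -log10 q above 2000 the number of long gaps was 1036.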
